A study of Mus musculus with 24 samples.

Results

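Loss of Apc was examined at its earliest sampled time, 3 days after induction of Cre, in the small intestine of AhCre-positive Apcfl/fl mice, which carry loxP-flanked alleles of Apc on both chromosomes, and of AhCre-positive wild-type mice. The comparison was chosen by sample label and day, and holds 6 of the 24 arrays of the series, 3 of Apcfl/fl mice and 3 of wild-type mice. Mice of both genotypes carried the AhCre transgene, in which the Cyp1a1 promoter drives Cre, and both received 3 intraperitoneal injections of 80 mg/kg beta-naphthoflavone, so that the inducer and the transgene are shared and only the Apc alleles differ by design. The mice were kept on an outbred background, their age is not stated, and each array carries a different animal name. Biotinylated cRNA made from the tissue was run on Affymetrix MOE430_2 arrays, and 15427 genes were tested, each by its brightest probe set.

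Apc is a scaffold of the complex that marks beta-catenin for destruction. When it is lost, beta-catenin enters the nucleus and, with Tcf/Lef factors, switches on Wnt target genes. In the healthy small intestine this pathway is active at the base of the crypt, where stem cells renew the epithelium and Paneth cells reside, and it fades as cells move up to the villus, stop dividing and take on absorptive or secretory duties. The AhCre transgene recombines floxed alleles in cells of the crypt, stem cells included.

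Already at day 3 the crypt and growth programmes differed between the genotypes, while most genes of the mature villus, like most genes tested, did not pass the test. After limma with Benjamini-Hochberg adjustment, 1663 of 15427 genes were higher in Apcfl/fl mice (10.8%) and 1144 were lower (7.42%). At an unadjusted limma p under 0.05, 5181 of the 15427 genes differed, both directions together. These values over all genes are the background for the counts of list members below. The median log2 difference was 0.98 among the higher genes and -0.99 among the lower genes, and over all genes it was 0.01. Arrays of the genotypes did not overlap for 4920 of all genes tested (31.9%), and for 2638 of the 2807 called genes. Genes that rose were brighter than those that fell, with a median scaled signal of 277 over the 6 arrays against 123, beside 159 for all genes tested. Values given for single arrays are signals scaled so that the geometric mean of every array is 100, and log2 differences are of log2(signal + 16), which understates the change of dim genes, each with 3 mice per genotype and, where given, its standard error (SE). RNA came from whole tissue, in which fewer cells of a type and less RNA per cell cannot be told apart.

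**Figure D1:**
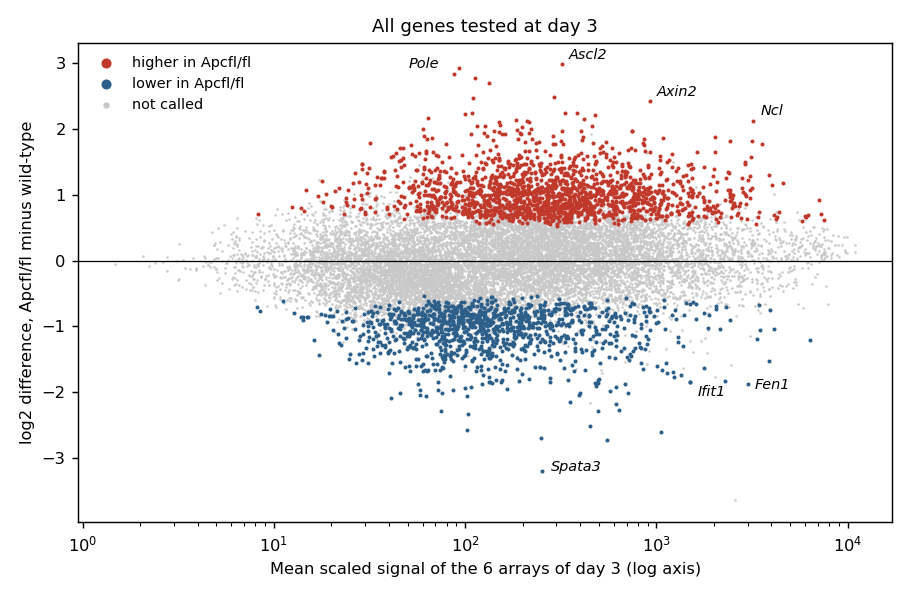
Each point is 1 of 15427 genes, with the mean scaled signal of the 6 arrays of day 3 on a log x axis and the log2 difference, Apcfl/fl minus wild-type, on the y axis. The 1663 genes called higher lie above 0 and the 1144 called lower lie below it, and 7 genes are named.

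The arrays were not of equal reliability. The lowest correlation with another array of the group was 0.923 to 0.932 on the wild-type arrays of day 3. In the other small intestinal groups it was 0.948 to 0.971. The test takes a single spread per probe set from all 6 groups, so its p-values can understate the spread among these wild-type arrays. The ratio of 3' to 5' signal was 1.18 to 1.21 for Actb and 0.879 to 1.08 for Gapdh on the Apcfl/fl arrays, and it was 1.14 to 1.38 and 0.906 to 1.29 on the wild-type arrays, with wild-type replicate 2 the highest of the 6 arrays for both. It was the highest wild-type array for 63.2% of the genes called lower and the lowest for 63.9% of those called higher, beside 37.6% and 33.4% of all genes. Without it, 918 genes were higher (5.95%) and 538 were lower (3.49%), of which 873 and 491 were also called with all arrays. Counts of gene lists are given without an array wherever leaving it out moved them by more than 1.5 times. Without Apcfl/fl replicate 2, 964 genes were higher and 798 lower. The animal names of all 3 wild-type mice begin with the same letters, which 1 of the 3 Apcfl/fl mice, replicate 3, shares, and what the letters mark is not stated. Fabp2, the fatty acid-binding protein of small intestinal enterocytes, was at 8102 to 11724 in Apcfl/fl mice and 7166 to 11204 in wild-type mice, whereas Hoxb13, a marker of the distal colon, stayed at 1.47 to 2.20 in Apcfl/fl mice and 2.11 to 3.24 in wild-type mice.

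Apc itself gave no clear check of the deletion. Its brightest probe set read 339, 448 and 370.1 in Apcfl/fl mice, against 400.0, 421 and 582 in wild-type mice, a log2 difference of -0.26 ± 0.20 (SE, limma adjusted p = 0.41). Of its 3 other probe sets, 1 fell (log2 -1.18, adjusted p = 0.027), 1 rose (1.06, adjusted p = 0.021) and 1 was near 0 (0.03). The files do not state which exons these probe sets cover, so they cannot be placed inside or outside the deleted stretch.

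Wnt target genes were examined first. Of 29 measured genes of a list of Wnt targets, 15 rose and 0 fell, and the median of the list was 0.58. Ascl2, the transcription factor that maintains crypt stem cells, showed the largest increase of all genes called on the log2(signal + 16) scale, reading 523, 604 and 599 in Apcfl/fl mice, against 25.7, 61.8 and 112 in wild-type mice. The lowest Apcfl/fl array lay more than 4 times above the highest wild-type array, and the difference was 7.91-fold (log2 2.98 ± 0.29, adjusted p = 3.7e-05). The plain ratio of mean signals was 8.64 for Ascl2, below the 18.9 of Pole and the 25.8 of Lect2, both near the floor in wild-type mice. Axin2, a negative-feedback component of the destruction complex, read 1068, 1969 and 1689 in Apcfl/fl mice, against 219, 263 and 343 in wild-type mice (log2 2.43 ± 0.26, adjusted p = 0.00012). Rnf43, a membrane ubiquitin ligase that removes Wnt receptors, read 394, 549 and 573 in Apcfl/fl mice, against 40.6, 113 and 90.7 in wild-type mice (log2 2.48 ± 0.30, adjusted p = 0.00014). For both feedback genes every Apcfl/fl array exceeded every wild-type array, and neither call was lost when any single array was left out.

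Further targets rose with them. Ephb3, a receptor that keeps cells in place along the crypt, rose by 2.12 on the log2 scale (adjusted p = 0.00025), and Tnfrsf19, a TNF-receptor family member of crypt stem cells, by 2.10 (adjusted p = 0.00027). Sp5, a transcription factor and direct Wnt target, read 269, 405 and 371 in Apcfl/fl mice, against 47.4, 124 and 77.5 in wild-type mice (log2 1.93 ± 0.48, adjusted p = 0.010). The surface glycoprotein Cd44 read 945, 1911 and 1170.4 in Apcfl/fl mice, against 397, 236 and 532 in wild-type mice, and Tiam1, an activator of the GTPase Rac, read 203, 299 and 194 in Apcfl/fl mice, against 86.9, 58.5 and 79.6 in wild-type mice. Both were apart between the genotypes (log2 1.76 and 1.43, adjusted p = 0.00075 and 0.00068). Hunk, the AMPK-related kinase at the centre of the study, read 343, 597 and 463 in Apcfl/fl mice, against 130.4, 119 and 119 in wild-type mice. Its wild-type values were nearly equal and its Apcfl/fl values all lay more than 2 times above them, and the difference was 3.41-fold (95% interval 2.49 to 4.66; adjusted p = 0.00014).

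Not every target had moved. Ccnd1, which encodes cyclin D1 and is often cited as a Wnt target, read 1699, 2149 and 1625 in Apcfl/fl mice, against 1099, 956 and 1931 in wild-type mice, so that the groups overlapped (log2 0.51 ± 0.32, adjusted p = 0.29). Sox17, a Wnt antagonist, overlapped as well at 173, 51.9 and 99.4 in Apcfl/fl mice, against 76.9, 84.4 and 40.1 in wild-type mice (adjusted p = 0.50), and at day 5 its difference was 2.24. Wif1, a secreted Wnt inhibitor, was dim on all 6 arrays, with the highest value of 17.3 on a wild-type array. Mmp7, a matrix metalloproteinase of Paneth cells, differed by 0.53 at day 3 (adjusted p = 0.27) and Enc1 by 0.01. A short list of Wnt targets, chosen because qRT-PCR was run for them in other mice, held 8 genes, of which 5 rose on the arrays, namely Myc, Ascl2, Axin2, Cd44 and Tiam1, and 0 fell.

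**Figure D2:**
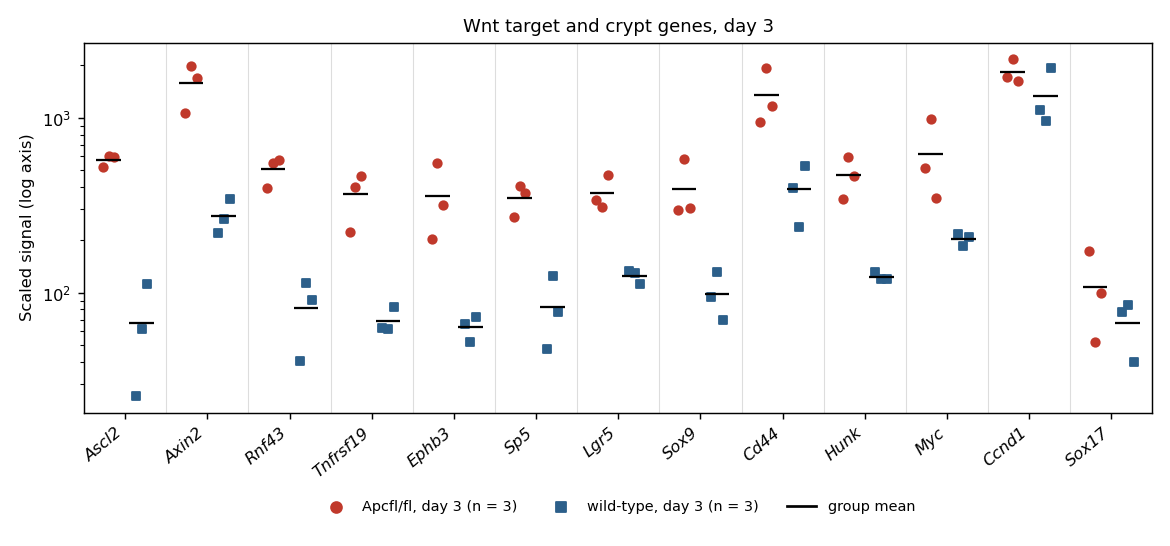
Scaled signal (log y axis) of 13 Wnt target and crypt genes on each array of day 3, with 3 Apcfl/fl arrays (circles, left) and 3 wild-type arrays (squares, right) per gene and the group mean as a line. The genotypes are apart from Ascl2 to Myc and overlap for Ccnd1 and Sox17.

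Of the lists examined, crypt stem cell genes had the highest share of members that rose. The lists were chosen with earlier results of these data known. Lgr5, Ascl2, Tnfrsf19 and Sox9 are also on the Wnt target list. Of 18 measured members, 17 rose and 0 fell, with a median of 1.41, and the Apcfl/fl arrays lay above the wild-type arrays for all 18, beside 18.0% of all genes tested. Lgr5, the receptor that marks crypt base stem cells, read 336, 306 and 472 in Apcfl/fl mice, against 132, 129 and 113 in wild-type mice (2.72-fold, 95% interval 2.03 to 3.64; adjusted p = 0.00031), although its dimmer probe set differed by -0.44 and was not called. Cdca7, a cell-cycle gene enriched in these cells, rose by 1.97 (adjusted p = 0.00014). The sodium-potassium-chloride cotransporter Slc12a2 rose by 1.81 at a high level, reading 4157, 4955 and 5531 in Apcfl/fl mice, against 1629.7, 892 and 1759 in wild-type mice. Sox9, a transcription factor of crypt base cells, rose by 1.81 on its brightest probe set and by 2.05 on another, while its remaining probe set fell by 1.02. Tert, the catalytic subunit of telomerase, was the member not called, at 44.2, 32.5 and 29.6 in Apcfl/fl mice, against 9.68, 8.03 and 16.2 in wild-type mice (log2 0.91 ± 0.35, adjusted p = 0.077).

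Upstream parts of the pathway moved less. In the list of Frizzled and Lrp receptors, which also holds the Lgr receptors, 3 of 17 rose and 3 fell. Lgr5 rose, as did Ryk, a Wnt co-receptor (log2 1.57, adjusted p = 0.0085), and Lgr4 (0.85, adjusted p = 0.018), whereas Lgr6 (-0.80), Ror1 (-1.04) and Fzd10 (-0.90) fell, and these 3 decreases and the call of Lgr4 were lost without wild-type replicate 2. Among 20 genes of the beta-catenin complex and the Tcf/Lef family, 0 rose and 2 fell, namely Gsk3a (-0.82), a kinase of the complex, and Dvl2 (-1.06), a signal relay from Frizzled, and the call of Gsk3a was lost without wild-type replicate 2 and that of Dvl2 without Apcfl/fl replicate 3. Ctnnb1, which encodes beta-catenin, read 5526, 4653 and 6020.5 in Apcfl/fl mice, against 3686, 3154 and 5235 in wild-type mice on its brightest probe set (log2 0.45, adjusted p = 0.14), whereas its other 2 probe sets rose by 1.38 and 0.99.

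Genes of DNA replication rose as a group. Of 35 measured members, 23 rose and 1 fell, with a median of 1.00. Pole, the catalytic subunit of the leading-strand polymerase, went beyond the rest, reading 147, 199.8 and 182 in Apcfl/fl mice, against 12.3, 5.60 and 10.2 in wild-type mice (log2 2.92 ± 0.31, adjusted p = 0.00012). The wild-type values were close to the lower end of what the array measures, so the size of that difference depends on the offset of 16. Mcm4 read 595, 979 and 733 in Apcfl/fl mice, against 274, 129 and 347 in wild-type mice. Mcm3 read 749.9, 1249 and 880.2 in Apcfl/fl mice, against 308, 334 and 436 in wild-type mice. Both encode subunits of the replicative helicase and both were apart between the genotypes (log2 1.63 and 1.36, adjusted p = 0.00098 and 0.0011). Dbf4, which activates the kinase that fires replication origins, rose by 1.82, and Rpa2, which coats single-stranded DNA, by 1.32. The member that fell, the flap endonuclease Fen1, read 1022, 1604 and 1146 in Apcfl/fl mice, against 3139.5, 5501 and 5575 in wild-type mice on its brightest probe set (log2 -1.88, adjusted p = 0.00031), but its other probe set rose by 0.90 (adjusted p = 0.032), so that its direction is not settled. Mcm2 differed by 0.05 on the brightest probe set and rose by 1.43 on the other, and Mcm10 (0.36) and Rfc2 (0.23) were not called.

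Mitotic genes followed, with 17 of 28 higher, 1 lower and a median of 0.89. Top2a, the topoisomerase that untangles chromosomes, read 1678, 2128 and 1659.6 in Apcfl/fl mice, against 592, 398 and 809 in wild-type mice, and Mki67, the proliferation antigen Ki-67, read 1249, 1441 and 1264 in Apcfl/fl mice, against 707, 315 and 623 in wild-type mice. The genotypes were apart for both (log2 1.62 and 1.32, adjusted p = 0.00064 and 0.0025). The spindle checkpoint kinases Bub1b and Bub1 rose by 1.42 and 1.27, and the kinetochore protein Ndc80 by 1.38. Cdk1, the mitotic kinase, was apart between the genotypes at 1045, 1290.1 and 872 in Apcfl/fl mice, against 610.0, 602 and 854 in wild-type mice but did not pass the test (adjusted p = 0.072), and Cdc20, an activator of the anaphase-promoting complex, overlapped (log2 -0.22). Tpx2, a spindle assembly factor, fell on its brightest probe set (-1.56) and on another (-1.68), and rose on 2 more (1.00 and 0.77). The count was 11 without wild-type replicate 2 and 10 without Apcfl/fl replicate 2.

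Control of G1 showed a narrower set of changes, with 5 of 28 genes higher (17.9%) and 2 lower (7.14%). Of all genes, 10.8% were higher and 7.42% lower. Ccnd2, which encodes cyclin D2, read 3007, 3749 and 2553 in Apcfl/fl mice, against 884, 862 and 1161 in wild-type mice (log2 1.66 ± 0.20, adjusted p = 0.00014). Its kinase partners Cdk4 and Cdk6 rose by 1.65 and 1.81 (adjusted p = 0.00031 and 0.00017). Cdkn2b, an inhibitor of these kinases, fell by 1.14 (adjusted p = 0.027) and the phosphatase Cdc25a by 0.85 (adjusted p = 0.013), and both decreases were lost without wild-type replicate 2. Cdkn1a, the p53-responsive inhibitor p21, read 1543, 1659.9 and 1718 in Apcfl/fl mice, against 850.2, 1419 and 1837 in wild-type mice and was not called (log2 0.33, adjusted p = 0.48).

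Myc, the transcription factor that drives cell growth, read 518, 988 and 345 in Apcfl/fl mice, against 217, 184 and 209 in wild-type mice, a 2.64-fold difference (95% interval 1.76 to 3.97; adjusted p = 0.0030). The 3 wild-type values lay close together, while Apcfl/fl replicate 2 was the highest of its group. In the network of Myc and its partners, 4 of 13 genes rose and 1 fell, the others being Max, the obligate partner (log2 1.45), Mycl (1.38) and Mga (1.36) among the increases and Mlx (-0.58) as the decrease. The calls of Max and Mlx were lost without wild-type replicate 2. Mxd1, which opposes Myc in differentiated cells, was not called at day 3 (log2 -0.24, adjusted p = 0.66).

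Factors of ribosome biogenesis were the list with the highest number of increases. Of 37 measured factors, 31 rose, 0 fell and the median was 1.06. Ncl, the nucleolar protein nucleolin, was among the brightest genes to change, reading 4837, 5567 and 4955 in Apcfl/fl mice, against 1671, 554 and 1658 in wild-type mice (log2 2.13 ± 0.31, adjusted p = 0.00041). Wild-type replicate 2 was its lowest value, and without that array the difference was 1.61. Npm1, nucleophosmin of the nucleolus, read 4393, 5430.3 and 4243 in Apcfl/fl mice, against 1873, 1212 and 1672 in wild-type mice (log2 1.57, adjusted p = 0.00035). Nop56 (1.68) and Dkc1 (1.63), which guide the chemical modification of ribosomal RNA, and Tsr1 (1.62) and Utp20 (1.55), which mature the small subunit, rose with them. Bop1 (0.54), Nop2 (0.17) and Heatr1 (0.12) were not called. The count was 24 without wild-type replicate 2, 20 without wild-type replicate 1 and 18 without Apcfl/fl replicate 2. Of 25 cytosolic ribosomal proteins, 4 rose and 0 fell, with a median of 0.44. All 25 differences were above 0, and 14 had arrays apart on the higher side, beside 18.0% of all genes. At an unadjusted p under 0.05, 12 were higher, beside 5181 of all 15427 genes in both directions together. Differences above 0 were not particular to this list. They were found for all 8 housekeeping genes (median 0.23, 2 higher) and for 21 of 24 respiratory chain genes (median 0.19, 2 higher). Without wild-type replicate 2, 0 genes of either of those lists were higher.

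Genes for the supply of nucleotides and one-carbon units rose as well, with 18 of 29 higher, 0 lower and a median of 0.96. Shmt1, which transfers one-carbon units from serine to folate, read 609, 739 and 629 in Apcfl/fl mice, against 198, 191 and 234 in wild-type mice (log2 1.59 ± 0.19, adjusted p = 0.00014). Prps2, which makes the ribose donor of nucleotides, read 1146, 1196 and 1654 in Apcfl/fl mice, against 434, 308 and 485 in wild-type mice (log2 1.67 ± 0.25, adjusted p = 0.00049). The genotypes were apart for both, with narrow ranges among the wild-type arrays. Rrm1, the large subunit of ribonucleotide reductase, rose by 1.47, and Gmps and Paics of purine synthesis by 1.33 and 1.30. Psat1 of serine synthesis rose by 1.57, though 1 of its Apcfl/fl arrays was far above the others at 309, 1016 and 317 in Apcfl/fl mice, against 137, 117 and 195 in wild-type mice, and its call was lost without that array or without either of wild-type replicates 1 and 2. Shmt2 (0.75) and Nme1 (0.59) were not called on their brightest probe sets. The count was 12 without wild-type replicate 1 or 2, and 10 without Apcfl/fl replicate 2.

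Cholesterol synthesis stood between these groups and the background, with 5 of 16 genes higher, 0 lower and a median of 0.72. Msmo1, a sterol demethylation enzyme, read 1039, 978 and 1070.0 in Apcfl/fl mice, against 306, 239 and 612 in wild-type mice (log2 1.49 ± 0.28, adjusted p = 0.0020). Hmgcs1, an early step of the pathway, rose by 1.34, Fdps by 1.31, Cyp51 by 1.19 and Idi1 by 1.14, and of the 5 only Msmo1 was still called without wild-type replicate 2, which was the lowest of the wild-type arrays for 4 of them. The count was 9 without wild-type replicate 3, and 3 without wild-type replicate 1 or any single Apcfl/fl array. Sqle, the rate-limiting squalene epoxidase, overlapped at 980.0, 961 and 993 in Apcfl/fl mice, against 519, 283 and 966 in wild-type mice (adjusted p = 0.10).

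**Figure D3:**
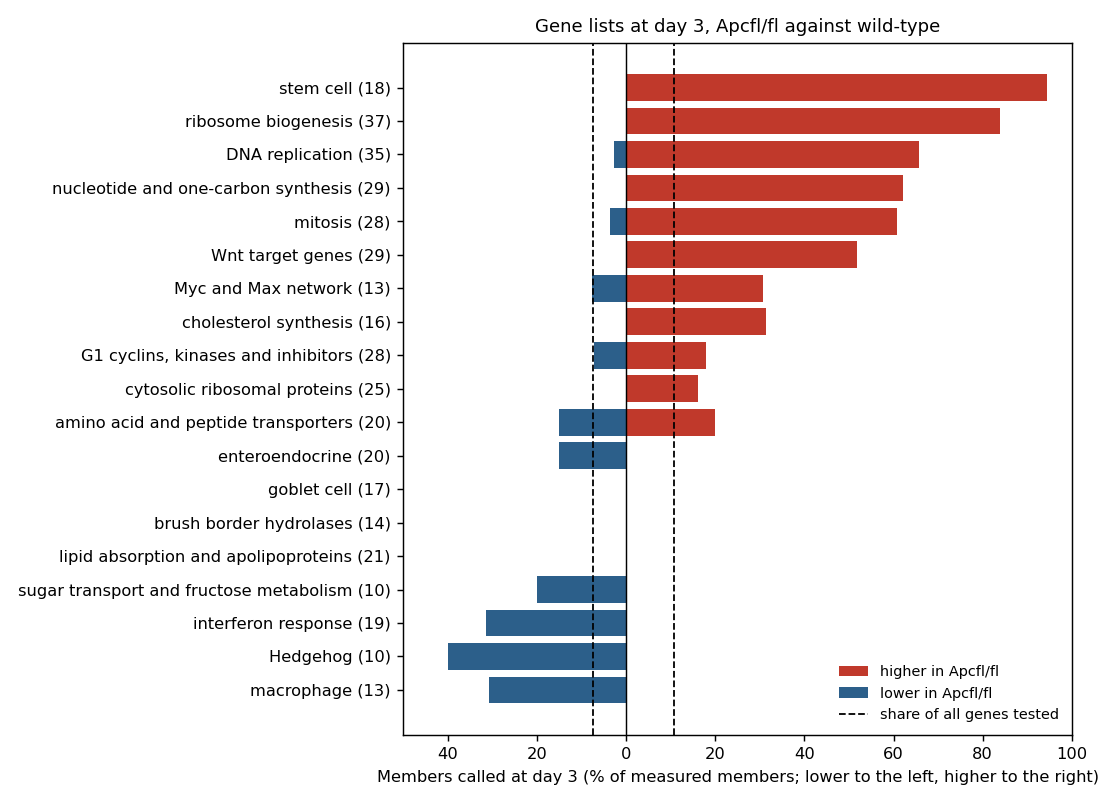
Percent of the measured members of each gene list (number in brackets) that were called at day 3, with members higher in Apcfl/fl mice to the right and members lower to the left of 0. Dashed lines mark the share of all 15427 genes, 10.8% higher and 7.42% lower. On the higher side, stem cell, ribosome biogenesis, replication, nucleotide, mitosis and Wnt target genes exceed it most. Cholesterol synthesis, Myc network, amino acid transporter, G1 and cytosolic ribosomal protein genes exceed it by less.

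Promoters of some of these genes are shown, with a single short motif chosen for each list. The windows run from 250 bases before to 50 bases after the RefSeq start site in the GRCm38.p6 build, and motifs were searched on both strands. An E2F site was taken as TTTCCCGC, TTTCGCGC, TTTGCCGC or TTTGGCGC, an E-box, the element bound by Myc with Max, as CACGTG, a Tcf/Lef site as ATCAAAG, and the interferon-stimulated response element as GAAANGAAA or GAAANNGAAA. Of 32851 promoters in the table, 2.26% held the E2F site, 7.15% the E-box, 3.73% the Tcf/Lef site and 6.27% the interferon element. Mcm3 and Sp5, a replication gene and a Wnt target that rose, Tsr1, a ribosome factor that rose, and Ifit1, an interferon gene that fell, are printed 5′ to 3′ with the matched motif in capitals.
Mcm3, chr1:20820263-20820562, minus strand, E2F site: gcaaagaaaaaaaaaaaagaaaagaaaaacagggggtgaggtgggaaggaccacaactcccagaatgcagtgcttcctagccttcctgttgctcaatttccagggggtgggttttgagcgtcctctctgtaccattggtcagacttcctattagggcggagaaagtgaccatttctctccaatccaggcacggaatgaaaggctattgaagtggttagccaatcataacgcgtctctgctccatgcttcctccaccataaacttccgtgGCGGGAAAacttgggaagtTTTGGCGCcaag
Sp5, chr2:70474673-70474972, plus strand, Tcf/Lef site: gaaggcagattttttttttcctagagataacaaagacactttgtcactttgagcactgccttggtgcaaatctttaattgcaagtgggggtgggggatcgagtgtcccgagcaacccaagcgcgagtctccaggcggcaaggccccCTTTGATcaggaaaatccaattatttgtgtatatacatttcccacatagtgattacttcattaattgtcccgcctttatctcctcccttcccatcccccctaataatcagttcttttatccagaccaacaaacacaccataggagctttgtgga
Tsr1, chr11:74897830-74898129, plus strand, E-box: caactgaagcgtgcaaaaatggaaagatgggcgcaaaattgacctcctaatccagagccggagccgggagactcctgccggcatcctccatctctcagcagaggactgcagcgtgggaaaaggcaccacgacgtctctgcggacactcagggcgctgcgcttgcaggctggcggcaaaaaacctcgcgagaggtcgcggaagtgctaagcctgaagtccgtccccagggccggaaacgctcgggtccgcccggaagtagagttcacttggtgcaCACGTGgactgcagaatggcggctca
Ifit1, chr19:34640639-34640938, plus strand, interferon element: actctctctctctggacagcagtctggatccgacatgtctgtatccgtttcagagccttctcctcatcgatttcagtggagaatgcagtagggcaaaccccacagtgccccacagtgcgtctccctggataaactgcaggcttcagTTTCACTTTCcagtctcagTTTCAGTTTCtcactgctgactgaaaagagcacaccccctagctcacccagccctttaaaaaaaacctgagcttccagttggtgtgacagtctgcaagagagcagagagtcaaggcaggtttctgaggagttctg

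The E2F site was found in 12 of 34 promoters of 28 replication genes (35.3%), 8 of which belong to genes that rose, and in 5.76% of the promoters of all genes that rose, 2.81% of those that fell and 3.44% of those of all genes tested. The Mcm3 window holds it at 2 places just after the start. The E-box was found in 7 of 36 promoters of ribosome biogenesis genes (19.4%), 6 of which belong to genes that rose, and in 12.5% of the promoters of genes that rose, 7.87% of those that fell and 9.05% of those tested. The Tcf/Lef site was in 5 of 24 promoters of Wnt target genes (20.8%) and in equal shares of the promoters of genes that rose and of those tested (2.82% each), beside 3.98% of those of genes that fell. These 2 motifs were not particular to the lists chosen for them. The E-box was in 29.4% of clock and 25.0% of stem cell promoters, but 8.33% of mitosis promoters. The Tcf/Lef site was in 3 of 8 Paneth cell promoters (37.5%), but 0 of 34 replication promoters. The interferon element was in 10 of 18 promoters of interferon response genes (55.6%), 2 of which belong to genes that fell, Oas1a and Ifit1, and in 8.51% of the promoters of genes that fell, 4.56% of those that rose and 5.26% of those tested. Over the whole lists, with or without the motif, 65.7% of replication genes and 83.8% of ribosome biogenesis genes rose, and 31.6% of interferon genes fell. The counts of called genes among the motif holders therefore do not set these holders apart from their lists. These letters mark matches only, and promoters of a gene with several start sites are counted separately.

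Few genes of the mature villus passed the test at day 3, though few of all genes did, 10.8% higher and 7.42% lower. At an unadjusted p under 0.05, 5181 of all 15427 genes differed, both directions together. Of 14 brush border hydrolases, 0 rose and 0 fell (median -0.18), and at an unadjusted p under 0.05 the counts were 0 higher and 2 lower. Of 21 genes of lipid absorption, 0 rose and 0 fell (median -0.33; 1 higher and 2 lower at an unadjusted p under 0.05), and of 17 goblet cell genes, 0 rose and 0 fell (median -0.21; 1 and 1). Slc5a1, the intestinal glucose transporter, read 6994, 4400.1 and 7321 in Apcfl/fl mice, against 4688, 6227 and 6397 in wild-type mice, and Slc2a2, the basolateral glucose transporter, read 3556, 2322 and 2657 in Apcfl/fl mice, against 2222, 3183 and 3429.7 in wild-type mice. The genotypes overlapped for both (log2 0.09 and -0.05). Of 10 genes of sugar handling, 2 had fallen and 9 of the 10 differences were below 0 (median -0.66). The 2 were G6pc, the last step of glucose release, at 226, 168 and 140.4 in Apcfl/fl mice, against 362, 483 and 884 in wild-type mice (log2 -1.53, adjusted p = 0.034), and Slc5a4b (-1.81, adjusted p = 0.045), and both calls were lost without wild-type replicate 2.

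Amino acid transporters were split between the directions, with 4 of 20 higher and 3 lower, beside 10.8% and 7.42% of all genes. Slc7a5, the large neutral amino acid exchanger of growing cells, read 125, 791 and 226 in Apcfl/fl mice, against 31.8, 65.4 and 95.1 in wild-type mice (log2 2.00 ± 0.59, adjusted p = 0.026), its Apcfl/fl values spread widely, and its call was lost without Apcfl/fl replicate 2, wild-type replicate 1 or wild-type replicate 2. Slc38a1 (0.87) and Slc38a2 (0.98), which import glutamine, and Slc7a6 (1.03) also rose. Slc36a1 (-1.21), Slc1a1 (-0.77) and Slc7a8 (-0.85) fell, while Slc6a19, the main neutral amino acid transporter of the brush border, read 3674, 2850.3 and 3892 in Apcfl/fl mice, against 3147, 4478 and 3351 in wild-type mice and was not called (adjusted p = 0.90). Without wild-type replicate 2, 2 of the 20 were higher and 1 was lower. Of the transporters called, only Slc7a6 kept its call whichever single array was left out.

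Secretory and signalling genes gave single changes rather than list-wide ones. Among 20 enteroendocrine genes, 0 rose and 3 fell, led by Gcg, which encodes the glucagon-like peptides, at 375, 223 and 163 in Apcfl/fl mice, against 535, 659.8 and 796 in wild-type mice (log2 -1.39 ± 0.32, adjusted p = 0.0069). Pyy (-0.82), a hormone of the same cells, and the transcription factor Pax6 (-0.91) fell as well, both with adjusted p close to the threshold of 0.05 (0.043 and 0.047) and both lost without wild-type replicate 2, and Chgb, a granule protein of these cells, read 1703, 914 and 1547 in Apcfl/fl mice, against 1141, 703 and 1533 in wild-type mice and was not called. Of 24 Notch and secretory fate genes, 2 rose (8.33%) and 4 fell (16.7%), beside 10.8% and 7.42% of all genes. Lfng, a glycosyltransferase that tunes Notch, rose by 1.93, and Hes6, an antagonist of Hes1, by 0.88. The ligands Dll1 (-0.72) and Dll4 (-0.66), the Notch regulator Dtx1 (-1.05) and Rfng (-0.65) fell, while Hes1, a principal Notch target, did not pass the test (log2 -0.02). The calls of Lfng, Dll4 and Rfng were lost without wild-type replicate 2. That of Dll1 was lost without Apcfl/fl replicate 3, and that of Hes6 on leaving out any of 4 arrays.

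Paneth and tuft cell markers moved in single genes, in numbers near the shares of all genes, 10.8% higher and 7.42% lower. Of 9 Paneth cell genes, 1 rose and 0 fell, namely Pla2g2a, a secreted phospholipase with antibacterial activity, which read 972, 2062 and 1074 in Apcfl/fl mice, against 296, 287 and 489 in wild-type mice (log2 1.85 ± 0.32, adjusted p = 0.0013). Lyz1, the lysozyme of these cells, differed by 0.30 and was not called. Of 12 tuft cell genes, 1 rose and 1 fell. Pou2f3, the transcription factor that defines tuft cells, fell and read 73.0, 47.6 and 33.6 in Apcfl/fl mice, against 185, 289 and 167 in wild-type mice (log2 -1.77 ± 0.29, adjusted p = 0.00089), while Dclk1, a microtubule kinase used as a tuft cell marker, differed by -0.08 (adjusted p = 0.92). The genotypes were apart for Pla2g2a and Pou2f3, and both calls held when any single array was left out.

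Growth factor signalling gave a few clear increases. Among 15 genes that report MAP kinase output, 3 rose and 1 fell, beside 10.8% of all genes higher and 7.42% lower. Phlda1, a pleckstrin-domain protein also found in crypt stem cells, read 1116, 1655 and 849 in Apcfl/fl mice, against 215, 313 and 341 in wild-type mice (log2 1.97 ± 0.31, adjusted p = 0.00060). Dusp4, a phosphatase that dampens the pathway, rose by 1.76 and the immediate early factor Egr1 by 1.57, whereas Dusp5 fell by 1.12 (adjusted p = 0.039), a call lost without wild-type replicate 2. Among 12 EGF ligands, ErbB receptors and regulators, Lrig1, an inhibitor of ErbB receptors and a stem cell marker, rose by 1.38 (adjusted p = 0.0012), whereas its dimmest probe set differed by -0.69 and was not called, and Egfr fell by 0.70 (adjusted p = 0.041), a call lost without wild-type replicate 2. The shares called in this list, 8.33% each way, were near those of all genes. Of 16 kinases of the AMPK-related family to which Hunk belongs, 3 rose and 0 fell, the others being Melk (1.10), a kinase of dividing cells, and Prkaa1 (0.96), a catalytic subunit of AMPK.

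Hedgehog genes fell in 4 of 10 cases and rose in 0, with a median of -0.48. Shh, an epithelial ligand of the pathway, read 224, 534 and 418 in Apcfl/fl mice, against 617, 1529 and 1786 in wild-type mice (log2 -1.65 ± 0.43, adjusted p = 0.014). Gli1 (-0.79) and Gli3 (-0.97), transcription factors of the responding mesenchyme, fell too. Smo, the signal transducer, fell on its brightest probe set (-1.19) and rose on the other (1.06, adjusted p = 0.0074). All 4 decreases were lost without wild-type replicate 2. Ihh (-0.48) and the receptor Ptch1 (0.24) were not called.

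Intestinal identity factors gave 5 increases and 1 decrease among 21. Beside Sox9, the epithelial factor Ehf rose by 1.46 (adjusted p = 0.0030) the forkhead factors Foxa1 and Foxa3 by 0.90 and 0.84, and Gata5 by 0.85, and Nr1h4, the bile acid receptor, fell by 0.86 (adjusted p = 0.010). The calls of Foxa1, Gata5 and Nr1h4 were lost without wild-type replicate 2, and that of Foxa3 on leaving out any of 4 other arrays. Hnf4a, a master regulator of enterocytes, read 2699, 3561 and 4349.9 in Apcfl/fl mice, against 2159.8, 3149 and 3605 in wild-type mice and overlapped between the genotypes.

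Some interferon response genes fell at day 3. Of 19 measured members, 0 rose, 6 fell and 13 did not pass the test, and the median was -0.93. Ifit1, an interferon-induced RNA-binding protein, read 506, 738 and 459 in Apcfl/fl mice, against 989, 1935 and 4427 in wild-type mice (log2 -1.85 ± 0.45, adjusted p = 0.0095). Oas1a, a sensor of double-stranded RNA, read 677, 1095 and 582 in Apcfl/fl mice, against 1069, 2900.2 and 4304 in wild-type mice (log2 -1.63 ± 0.40, adjusted p = 0.0093), and Usp18, which restrains the response, read 285, 693 and 413 in Apcfl/fl mice, against 714, 1254 and 3460.5 in wild-type mice (log2 -1.71 ± 0.46, adjusted p = 0.016). Within each of the 3 genes the wild-type arrays spanned more than 4 times, with replicate 1 the lowest and replicate 3 the highest. Oas2 (-1.84), Oasl2 (-1.77) and Irf7 (-1.04) fell as well, and Rsad2, at 283, 398 and 148 in Apcfl/fl mice, against 243, 897 and 2124 in wild-type mice, did not pass the test (adjusted p = 0.063). Summed over the list, the signal was 5608 to 9499 on the Apcfl/fl arrays and 10049 to 33515 on the wild-type arrays. Without wild-type replicate 3 the count was 2, without Apcfl/fl replicate 1 it was 3, and without wild-type replicate 2 it was 4. Of the 6 genes, only Ifit1 and Oas1a kept their calls whichever single array was left out.

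**Figure D4:**
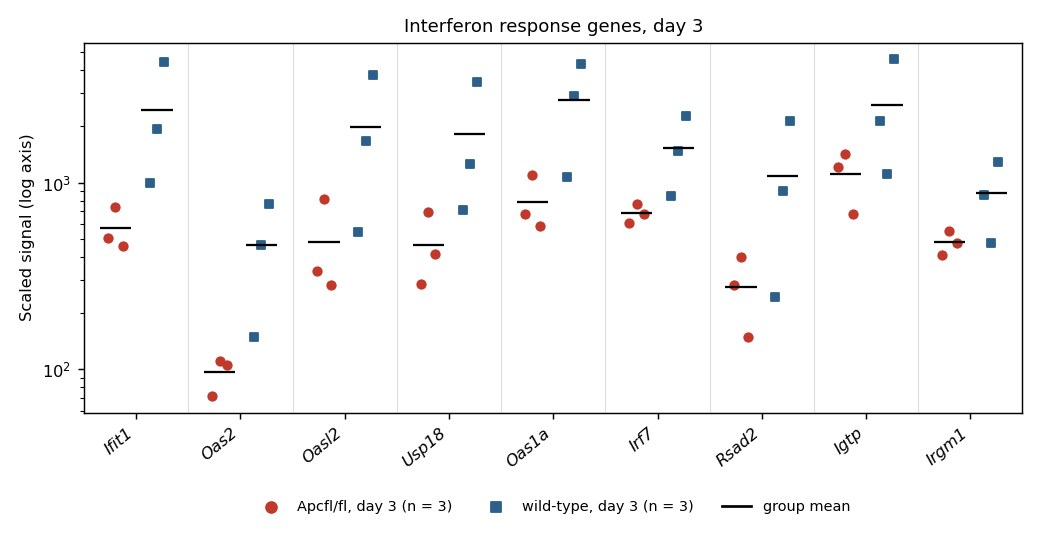
Scaled signal (log y axis) of 9 interferon response genes on each array of day 3, with 3 Apcfl/fl arrays (circles, left) and 3 wild-type arrays (squares, right) per gene and the group mean as a line. For Ifit1 the Apcfl/fl values lie between 459 and 738, below all wild-type values, which spread from 989 to 4427.

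Markers of other cells of the tissue were examined beside these results and the shares of all genes, 10.8% higher and 7.42% lower. Of 13 macrophage genes, 0 rose and 4 fell, namely Adgre1 (201, 258 and 206 in Apcfl/fl mice, against 459.8, 395 and 409.7 in wild-type mice, log2 -0.89, adjusted p = 0.0044), the complement genes C1qb (-1.05) and C1qc (-1.05) and the growth factor receptor Csf1r (-0.88). The summed signal of all 13 was 4184 to 4598 in Apcfl/fl mice and 6301 to 7971 in wild-type mice. Without wild-type replicate 2 only Adgre1 was called. Endothelial markers also did not overlap in sum, at 1070.4 to 1264 in Apcfl/fl mice and 1544 to 1981 in wild-type mice, with 1 of 10 lower. Of 9 genes of enteric nerve and glia, 2 fell with and without wild-type replicate 2, the glial Gfap (-0.83) and Sox10 (-0.75). Of 11 B and plasma cell genes, 2 fell, Ighm (-1.33) and Cd22 (-1.04), and each lost its call on leaving out any of 5 arrays, wild-type replicate 2 included. Neutrophil genes, of which 1 of 7 fell, summed to 382 to 531 in Apcfl/fl mice, against 649 to 902 in wild-type mice. Genes typical of colonocytes, of which 1 of 11 fell, summed to 3495 to 5921 in Apcfl/fl mice, against 6223 to 12582 in wild-type mice. No gene passed the test among 13 T cell, 15 collagen and 12 smooth muscle genes, of which 2, 0 and 0 were lower and 0 higher at an unadjusted p under 0.05. T cell genes summed to 4702 to 7473 in Apcfl/fl mice, against 6156 to 9216 in wild-type mice. The sum of the collagen genes was 7150 to 8208 in Apcfl/fl mice, against 8222 to 12080.4 in wild-type mice, and that of the smooth muscle genes 3520 to 6270.3 in Apcfl/fl mice, against 4449 to 11324 in wild-type mice. MHC class II genes went the other way from the macrophage list, with 6 of 6 differences above 0, 1 higher and 0 lower. They summed to 19413 to 23325 in Apcfl/fl mice, against 17227 to 19918 in wild-type mice, and 0 were called without wild-type replicate 2. Pan-epithelial genes had a higher range, 45365 to 54717 in Apcfl/fl mice and 33571 to 48687 in wild-type mice, with 1 of 10 higher. Whether shares of these cells contributed to the interferon or Hedgehog decreases was not tested. Cyp1a1, the target of the inducer, was 985, 907 and 156 in Apcfl/fl mice, against 1063, 1283 and 875 in wild-type mice, with 1 low array among the Apcfl/fl mice, and the summed signal of 8 genes of the aryl hydrocarbon response was 1213 to 2410.3 in Apcfl/fl mice, against 2442 to 2633 in wild-type mice, with 0 of them called (0 higher and 1 lower at the unadjusted p).

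Among the 12 largest increases with arrays apart, beside Ascl2, Axin2, Rnf43 and Pole, were 8 genes on none of the lists. Lect2, a secreted chemotactic protein, read 170.4, 60.2 and 275 in Apcfl/fl mice, against 6.04, 6.13 and 7.47 in wild-type mice (log2 2.83 ± 0.41, adjusted p = 0.00035). Timeless, which protects replication forks, read 181, 272 and 249 in Apcfl/fl mice, against 6.18, 9.40 and 80.7 in wild-type mice, and the ribosomal S6 kinase Rps6ka6 rose by 2.25. The N-terminal methyltransferase Ntmt1 (2.78), the urea transporter Slc14a1 (2.47), the pseudokinase Trib1 (2.23) and Rcbtb1 (2.24) also rose, as did Kcnq1ot1, a non-coding RNA of the Kcnq1 locus (2.25), whose 3 dimmer probe sets were not called. For Lect2 and Ntmt1 the wild-type arrays were near the floor and all Apcfl/fl arrays were clearly measured.

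The largest decreases were led by Spata3, a gene named for spermatogenesis, at 47.3, 29.7 and 27.4 in Apcfl/fl mice, against 553, 590.0 and 272 in wild-type mice (log2 -3.21 ± 0.54, adjusted p = 0.0011). Reg3a, an antimicrobial lectin, read 384, 180.3 and 263 in Apcfl/fl mice, against 1254, 2976 and 1274 in wild-type mice (log2 -2.60 ± 0.73, adjusted p = 0.020), and Dbp, a clock-controlled transcription factor, read 255, 73.0 and 310.4 in Apcfl/fl mice, against 709, 1811 and 652 in wild-type mice (log2 -2.27 ± 0.53, adjusted p = 0.0079). The genotypes were apart for all 3, but wild-type replicate 2 was the highest array for each, and without it Reg3a (-2.19, adjusted p = 0.10) and Dbp (-1.81, adjusted p = 0.056) were not called. Serpina1c, a serine protease inhibitor, fell by 2.19 and Neurod4, a neuronal and endocrine transcription factor, by 2.33. Lrg1 read 4.57, 23.1 and 10.3 in Apcfl/fl mice, against 248, 73.4 and 88.9 in wild-type mice, and Fam71d (-2.72), Ecrg4 (-2.69), Gm9706 (-2.58), Fbxo36 (-2.52), 4930413G21Rik (-2.28) and Trim62 (-2.15) made up the rest of the 12. Dbp was the only 1 of 14 clock genes that was called, and the time of day at sampling is not stated.

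Genes called at day 3 were then followed at days 4 and 5, for which separate mice of both genotypes were used. Of the 1663 genes higher at day 3, 1081 were also higher at day 4 (65.0% of the day 3 genes and 47.3% of the 2287 genes higher at day 4, which are 14.8% of those tested) and 1196 at day 5 (71.9%, and 37.8% of the 3164 genes higher at day 5, 20.5% of those tested). Decreases were followed likewise. Of the 1144 genes lower at day 3, 472 were lower at day 4 (41.3%, and 30.9% of the 1526 genes lower on that day, 9.89% of those tested) and 483 at day 5 (42.2%, and 24.3% of 1991, 12.9% of those tested). The median difference of the day 3 increases was 0.98 at day 3, 0.86 at day 4 and 0.95 at day 5, and that of the day 3 decreases was -0.99, -0.64 and -0.62. As the genes were picked by their day 3 values, these medians are no measure of a change between days. The direct test of a difference between days called 6 genes between day 3 and day 4 (0.0389% of those tested) and 122 between day 3 and day 5 (0.791%). These counts were 1 to 51 and 12 to 309 when 1 array of day 3 was left out.

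List medians were set side by side by day. The stem cell median was 1.41 at day 3, 1.63 at day 4 and 1.62 at day 5, and that of replication genes was 1.00, 1.15 and 1.10. For Wnt targets it was 0.58, 1.13 and 1.47, with 3 of 29 members called for a difference between day 3 and day 5, among them Tnfrsf19 (2.10 at day 3 and 3.93 at day 5) and Mmp7 (0.53 and 2.60). Sugar handling genes had medians of -0.66, -1.64 and -2.15, brush border hydrolases of -0.18, -0.90 and -0.94, and drug-metabolising enzymes of -0.31, -0.69 and -1.29, with 0 of 26 of the last called at day 3 (1 higher and 2 lower at an unadjusted p under 0.05) and 13 lower at day 5. Of these 3 lists no member was called for a difference between day 3 and either later day. The interferon list had medians of -0.93, 0.45 and 0.39, and 1 of its 19 members, Rsad2, was called for a difference between day 3 and day 5.

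**Figure D5:**
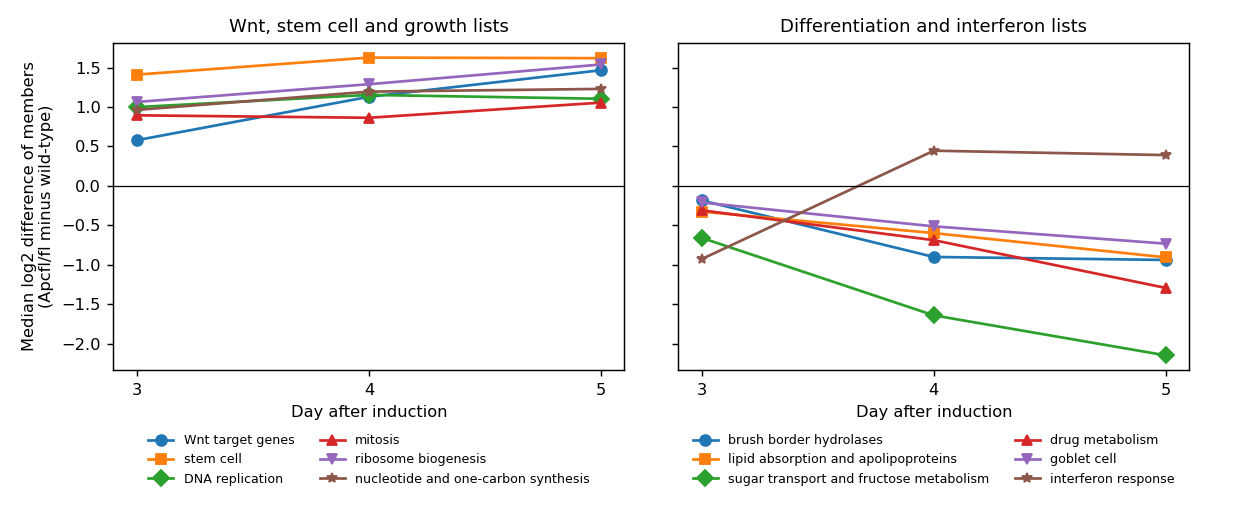
Median log2 difference, Apcfl/fl minus wild-type, of the measured members of 12 gene lists at days 3, 4 and 5 (x axis), with 3 mice per genotype and day. The stem cell median is near 1.41 to 1.63 on all 3 days, that of sugar handling falls to -2.15 at day 5, and that of interferon response genes is -0.93 at day 3 and above 0 afterwards.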

How the data were processed

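The deposited values are scores: on every array the natural log of the signal, which the authors had standardized. The signal behind each score was recovered (every low signal then fell on whole steps of 0.1, to within 0.1 of a step) and rescaled to a geometric mean of 100. The probe summarisation is not stated in the labels or methods. Of 35110 probe sets, 44 controls were left out, 769 carried several gene symbols and 6144 none; genes were represented by their brightest probe set. log2(signal + 16) was tested by moderated linear models (R 4.3.3; limma 3.58.1, functions lmFit and eBayes; 2-sided) over the 18 small intestinal arrays, 6 groups with 12 residual degrees of freedom, each day having its own wild-type mice, and p-values were adjusted by Benjamini-Hochberg over 35066 probe sets, with 0.05 as the threshold. Intervals are 95%. On simulated data for the day 3 comparison (35066 probe sets), 22% of 100 changes of 1 and 87% of 100 changes of 2 (log2) were recovered with 12 false calls. Only those probe sets were changed, fewer than were called in the data, and each probe set had 1 spread for all groups. The recovered shares are therefore not the power of the day 3 comparison. With 3 arrays a group, an exact permutation test cannot go below p = 0.1. Arrays carry no counts, and their number limits the precision. Whether mice were littermates or RNA was handled together is not stated. Named genes were the 12 largest increases and decreases with arrays apart, leading members of each list, genes the study names and the largest differences between days. Members and lists were chosen with earlier results of these data known. Promoters are RefSeq's, build GRCm38.p6, for 12325 of the tested genes. Alternatives were array weights, other offsets and scalings, the mean of all probe sets, the 6 arrays alone, and each array left out. Arrays of ApcMin tissue were not used. Figures were drawn with matplotlib 3.10.9.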

Additional observations from a re-analysis of the deposited data

Results flagged for a closer look

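The effect of Apc deletion at day 3 differed from that on a later day, by a test of the difference itself in limma, for the 6 genes called between day 3 and day 4 and, among those called between day 3 and day 5, for 12 genes that also met the naming rule. Day 4 minus day 3, the difference was -3.77 for Gdpd3, a phosphodiesterase (day 3 log2 -0.01, day 4 -3.78), and -1.82 for Ear3, a ribonuclease of eosinophils (-0.16 and -1.98). It was 2.44 for Cited1, a transcriptional co-activator (0.03 and 2.47), and -1.55 for Pcdhb11, a protocadherin (0.83 and -0.72). Gm9706 gave 2.99 between day 3 and day 4 and 2.68 between day 3 and day 5, having fallen by 2.58 at day 3 and differing by 0.42 and 0.10 later. Fen1 gave 2.22 and 2.60 on its brightest probe set, which its other probe set contradicts at day 3.

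Day 5 minus day 3, the mucus-associated Clca1 gave -4.05 (0.62 at day 3, -3.44 at day 5) and the immunoglobulin gene Iglv1 -2.94 (0.44 and -2.50). The interferon gene Rsad2 gave 3.60 (-1.55 and 2.05), and Tnfrsf12a, a receptor of the cytokine Tweak, 3.54, with increases on both days (1.58 and 5.12). The Wnt receptor Fzd6 gave 2.59 (0.18 and 2.76). Genes that had fallen at day 3 and were higher or near 0 at day 5 were Spata3 (difference 3.55), Zbtb7c (2.59), Sgk1 (2.57), Fhit (2.49) and Lrg1 (2.45). The day 3 calls of Sgk1 and Fhit were lost without wild-type replicate 2.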

How the results depend on the processing

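No call of a named gene turned its direction under any alternative run. Medians of 6 lists near 0 changed sign without wild-type replicate 2, those of brush border hydrolases to 0.01, of tuft cell genes to 0.07 and of identity factors to -0.07 among them. With estimated array weights, 882 genes were higher and 508 lower, 57 differed between days 3 and 5, and 129 list members were called, against 210 (mitosis 10, cholesterol synthesis 2). The fit of the 6 arrays of day 3 alone has fewer degrees of freedom and takes its spread from day 3 only. It called 530 genes higher, 342 lower and 104 list members (replication 15, mitosis 6, ribosome biogenesis 17, nucleotide synthesis 11, cholesterol synthesis 1, interferon genes lower 2). Requiring a log2 difference of at least 1 left 792 genes higher, 554 lower and 136 list members (mitosis 10). The number of genes that differed between days 3 and 5 was 63 with an offset of 1, 309 with an offset of 64, 56 on the standardized scores and 203 with trended and robust variances, and between days 3 and 4 it was 3 with an offset of 64 and 0 without dim probe sets. Cholesterol synthesis gave 3 with an offset of 1 and 2 on the standardized scores. The causes were not tested. Leaving out 1 array gave 918 to 1868 genes higher at day 3, 538 to 1272 genes lower at day 3, 1 to 51 and 12 to 309 genes differing between days 3 and 4 and days 3 and 5, 135 to 215 list members, and 10 to 21 mitosis, 18 to 31 ribosome biogenesis, 10 to 18 nucleotide synthesis, 1 to 9 cholesterol synthesis and 2 to 8 interferon genes. Of 137 called genes named in the text, 91 kept their call without wild-type replicate 2, 104 without Apcfl/fl replicate 2, 95 with array weights, 84 with the 6 arrays alone and 128 after quantile normalization. Genes near the floor of the signal have sizes set by the offset. No paired analysis was possible because the numbers in the labels are not shared between the Apcfl/fl and wild-type arrays of day 3.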

Other observations

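Gene families outside the lists were counted after their values had been seen, so their counts are a description. They were matched by letters of the gene symbol only. Matches therefore include Psmg3 and Psmg4 among the proteasome genes, Hoxb5os among the Hox genes and the non-coding Kcnq1ot1 among the potassium channel genes. Beside 10.8% of all genes, 5 of 8 subunits of the chaperonin that folds actin and tubulin rose at day 3, Cct8 by 1.54. Of 18 nucleoporins, which build the nuclear pore, 12 rose, among them Nup85 by 1.37, and 7 did without wild-type replicate 2. Of 20 importins and exportins, which carry cargo through the pore, 9 rose (6 without that array), among them Ipo7 by 1.53. Splicing factors moved the same way, with 7 of 10 Srsf genes (Srsf5 by 1.47) and 9 of 19 Hnrnp genes (Hnrnpu by 1.35) higher. Of 46 translation initiation factors 16 rose and 1 fell, with Eif3m higher by 1.71, and of 15 tRNA synthetases 5 rose, with Gars higher by 1.65. Genes with proteasome symbols (9 of 48 higher) and mitochondrial ribosomal proteins (10 of 76) lay nearer to the share of all genes.

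Beside 7.42% of all genes lower with all arrays and 3.49% without wild-type replicate 2, 7 of 21 olfactory receptor genes were lower with all arrays and 0 without that array. Predicted gene models with names ending in Rik were lower in 98 of 821 cases and in 47 without that array, and those starting with Gm in 42 of 271 and 22. Potassium channel genes were lower in 11 of 59 cases and higher in 3, and cytochromes P450 lower in 7 of 57 and higher in 1. Hox genes were lower in 5 of 27 cases and serpins in 4 of 28, with 0 higher. Counts without wild-type replicate 2 were not made for these last families. The median signals of the olfactory receptors, Rik and Gm genes over the 6 arrays, 61.7, 50.9 and 38.8, lay below the 159 of all genes. So did those of potassium channel genes (60.9), Hox genes (42.7), serpins (65.8) and cytochromes P450 (89.3).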
